A study of Drosophila melanogaster with 18 samples.

Results

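The response of the larval fat body to *4EHP* RNAi was set against its response to *NELF-E* RNAi, transcript by transcript, to ask which transcripts answer to 1 knockdown only or move in opposite directions. The measure was a difference of differences on a log2 scale, the change from control to *4EHP* RNAi minus the change from *lacZ* RNAi to *NELF-E* RNAi. Transcripts were compared where the mean was at least 5 CPM (reads of a gene scaled to a common library total) in each experiment, which left 8162 of the 17575 listed. A positive difference means that a transcript was relatively higher after *4EHP* RNAi than after *NELF-E* RNAi, whatever the sign of the single effects.

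RNA-seq of fat body of the third larval instar gave 12 libraries in 4 groups of 3. The methods state that each library was made from the pooled fat bodies of several males. The first experiment compared *dcg-Gal4/uas-4EHP* RNAi with *dcg-Gal4/+*, called control, which came from a cross to the strain *w1118*. The second compared *dcg-Gal4/uas-NELF-E* RNAi with *dcg-Gal4/uas-lacZ* RNAi, whose hairpin has no fly target. All larvae were on standard cornmeal food and carried dcg-Gal4, which switches on UAS transgenes in fat body cells. The control of the first experiment expressed no hairpin, and the methods state that *NELF-E* RNAi crosses were kept at a lower temperature than all other crosses, among which they do not single out those with *lacZ* RNAi. In the study's assay of developmental timing with *NELF-E* RNAi, the *lacZ* RNAi flies were also at the lower temperature. For the RNA-seq libraries with *lacZ* RNAi the temperature is not stated separately. The study also reports a developmental delay with either knockdown. The knockdown, the experiment, the kind of control, the temperature and the larval age therefore cannot be told apart in the difference between the 2 effects.

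4EHP is a homolog of the cap-binding protein eIF4E that occupies the mRNA cap without recruiting the initiation machinery, and is best known for repressing the translation of chosen mRNAs. NELF-E is the RNA-binding subunit of the negative elongation factor, which holds RNA polymerase II in a paused state shortly after the start of transcription. The fat body stores lipid and carries out much of the larva's metabolism, and crc, the fly ATF4, activates amino acid and one-carbon genes there.

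Depth was between 59919651 and 173606468 reads per library. The 12 fat body marker transcripts summed to between 148300 and 358900 CPM, against 67.0 to 229 CPM for the haemocyte list and 91.2 to 405 for the muscle list. The testis list, which marks the gonads embedded in the fat body of male larvae, summed to 69.9 CPM in control replicate 3, 730 in *lacZ* RNAi replicate 2 and 1711 in *lacZ* RNAi replicate 3, against 3452 to 5402 in the other 9 libraries. Control replicate 3 stood apart in general, with 7853 transcripts above 1 CPM against 9335 to 10940 elsewhere and a correlation of 0.519 to 0.601 with the other controls. Across transcripts, its deviations from its group mean had a correlation of 0.831 with those of *lacZ* RNAi replicate 2. *lncRNA:roX1*, a noncoding RNA of male dosage compensation, was at 1.12 CPM in control replicate 3. It was at 47.5 to 241 CPM in the other libraries, with 197 in *lacZ* RNAi replicate 2. The sex of the larvae in control replicate 3 was not tested. Values without control replicate 3 are therefore given beside those results that it moves, and for the called differences also values without both libraries. In bulk RNA, fewer cells of a type and less RNA per cell cannot be told apart.

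Neither targeted transcript passed the test. *eIF4EHP*, the name in the files for *4EHP*, was at 19.9, 19.8 and 11.3 scaled CPM in control replicates 1 to 3 and at 17.0, 10.6 and 13.4 in *4EHP* RNAi replicates 1 to 3. Its log2 effect was −0.28 (standard error 0.27, limma adjusted p = 0.540), and the groups overlapped through control replicate 3 alone. Without that library both controls lay above all *4EHP* RNAi libraries and the effect was −0.50 (limma unadjusted p = 0.0513, adjusted p = 0.281). *Nelf-E* was at 29.9, 25.5 and 28.4 scaled CPM with *lacZ* RNAi and at 25.6, 32.0 and 20.5 with *NELF-E* RNAi, a log2 effect of −0.12 (standard error 0.33, limma adjusted p = 0.899) with overlapping groups. Exons of *eIF4EHP* overlap *Syx1A* and those of *Nelf-E* overlap *CG43078*, so reads of a neighbour may be included. The groups are accordingly the libraries labelled *4EHP* RNAi and *NELF-E* RNAi.

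The main outcome was a shared response. With *4EHP* RNAi, 157 transcripts were induced (1.92% of those tested) and 54 reduced (0.662%), by limma with Benjamini-Hochberg adjustment at an adjusted p under 0.05. With *NELF-E* RNAi, 122 were induced (1.49%) and 146 reduced (1.79%). Of these, 79 were induced by both, which is 50.3% of the *4EHP* set and 64.8% of the *NELF-E* set, and 41 were reduced by both, which is 75.9% and 28.1%. No transcript was called in opposite directions. Without control replicate 3, 173 were induced by both (49.4% and 65.0%) and 44 reduced by both (75.9% and 9.05%), where the lower share follows from a rise of the transcripts reduced by *NELF-E* RNAi from 146 to 486. All these counts rest on a spread shared between the experiments. Leaving out control replicate 3 therefore changed the p values for *NELF-E* RNAi but not its effects. With the spread estimated within each experiment, the *4EHP* counts fell to 0 and 0 and the *NELF-E* counts were 150 and 192. With CPM as deposited, which carries no factor between libraries, the *NELF-E* counts were 420 induced and 227 reduced.

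Among the largest shared falls were a heat shock gene, a lysosomal gene and a cytochrome P450. *Hsp23*, a small heat shock protein, was at 5418, 3083 and 4548 scaled CPM in control replicates 1 to 3 and at 280, 254 and 301 with *4EHP* RNAi. It was at 1781, 7547 and 1753 with *lacZ* RNAi and at 124, 77.0 and 115 with *NELF-E* RNAi. All 6 knockdown libraries lay far below all 6 control libraries, with log2 effects of −3.93 and −4.78 (limma adjusted p = 0.0063 and 0.0020). *GILT2*, of the lysosomal thiol reductase family, was at 106, 128 and 480 in control and 8.07, 10.3 and 17.4 with *4EHP* RNAi. It was at 98.1, 267 and 131 with *lacZ* RNAi and 2.81, 2.31 and 2.48 with *NELF-E* RNAi, again without overlap. Its effects were −3.92 and −5.43, and the difference of 1.50 (standard error 0.80) did not pass the test. *Cyp304a1*, a cytochrome P450, was at 13.3, 18.8 and 159.5 scaled CPM in control and fell to 0.676, 0.408 and 0.269 with *4EHP* RNAi, so that control replicate 3 set most of the control mean. It was at 12.3, 16.0 and 36.2 with *lacZ* RNAi and fell to 0.0824, 0.248 and 0.0993 with *NELF-E* RNAi.

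Among the largest shared rises were a glutathione S-transferase, a globin and both Arc genes. *GstD6* was at 0.157, 0.558 and 2.90 scaled CPM in control and at 99.4, 60.0 and 52.1 with *4EHP* RNAi. It was at 0.219, 0.911 and 0.801 with *lacZ* RNAi and at 101, 218 and 127 with *NELF-E* RNAi, so its effects were 5.17 and 6.46 (limma adjusted p = 0.000978 and 0.000436). The transcript was close to absent in all 6 control libraries and abundant in all 6 knockdown libraries. *glob1*, the main haemoglobin of the fly, was at 5.06, 5.73 and 14.0 in control and rose to 673, 510 and 336 with *4EHP* RNAi. It was at 4.22, 8.25 and 38.8 with *lacZ* RNAi, where replicate 3 stood above the others, and rose to 548, 747 and 499 with *NELF-E* RNAi. *Arc1*, which encodes a capsid-forming protein derived from a retrotransposon, rose by 5.21 and 6.08 on the log2 scale and its neighbour *Arc2* by 4.54 and 4.65. For *CG15347* the effects of 4.25 and 4.19 differed by 0.06 (95% interval −1.62 to 1.74), and by 0.85 without control replicate 3, where neither difference passed.

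**Figure D1:**
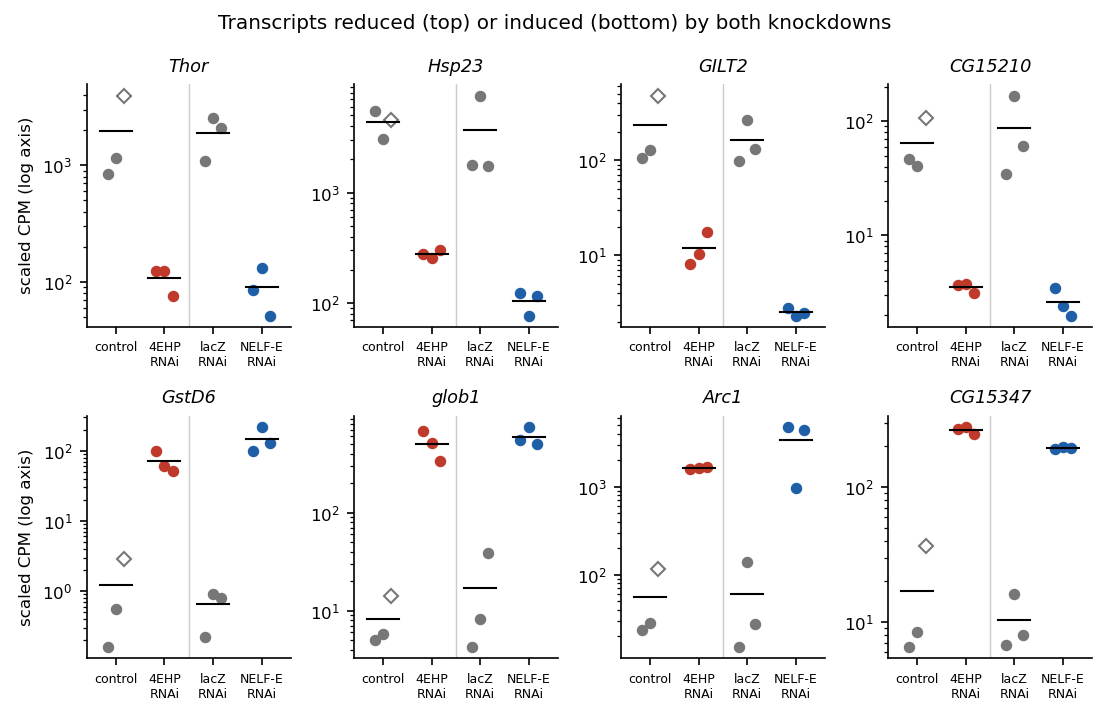
Scaled CPM on a log axis for 4 transcripts reduced by both knockdowns (top) and 4 induced by both (bottom). Each point is 1 library, the open diamond is control replicate 3 and the bar is the mean of the group. In every panel the knockdown libraries lie apart from their controls on the same side, as for *GstD6* with 52.1 to 99.4 against 0.157 to 2.90 in the first experiment.

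Over all 8162 transcripts, the 2 effects had a Pearson correlation of 0.756 and a Spearman correlation of 0.763, and 77.6% had the same sign. These are descriptions across transcripts, which share their libraries. The experiments have no control sample in common, but the values depend on control replicate 3: without it the correlations were 0.46 and 0.205 and the share of the same sign was 53.1%. Without both control replicate 3 and *lacZ* RNAi replicate 2 they were 0.518, 0.224 and 54.0%. Among transcripts called for *4EHP* RNAi, 157 of 157 induced and 53 of 54 reduced had the same sign with *NELF-E* RNAi. Without control replicate 3 these were 329 of 350 and 54 of 58.

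**Figure D2:**
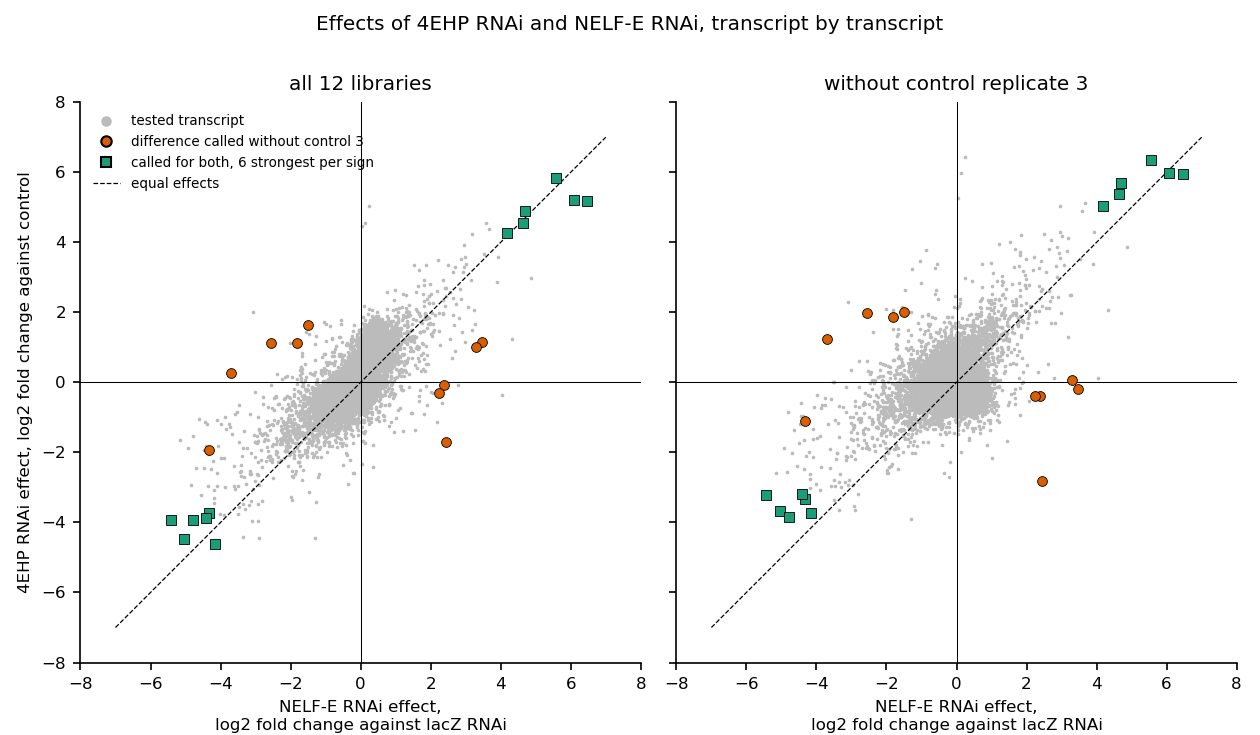
Log2 effect of *NELF-E* RNAi (horizontal) and of *4EHP* RNAi (vertical) for each tested transcript, with all 12 libraries at left and without control replicate 3 at right. Squares are the 6 transcripts reduced and the 6 induced by both with the largest summed effects, circles the 10 with a called difference without control replicate 3, and the dashed line marks equal effects. The grey cloud follows the line at left (r = 0.756) and is rounder at right (r = 0.46), while the squares lie at the far ends of the cloud in both panels.

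No transcript had a called difference between the knockdowns with all 12 libraries. Limma called 0 of 8162 (0%), with a smallest adjusted p of 0.533, and 160 transcripts (1.96%) had an unadjusted p under 0.05. edgeR on the recovered reads also called 0, with 209 unadjusted. DESeq2 on the recovered reads called 33 of 9041, of which 17 were relatively higher (0.188%) and 16 lower (0.177%) after *4EHP* RNAi. The median standard error of a difference was 0.64, which gives an unadjusted 95% interval with a half-width of 1.43.

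Without control replicate 3, the median standard error fell to 0.45 and limma called 10 of 8213 transcripts, 5 relatively higher (0.0609%) and 5 lower (0.0609%) after *4EHP* RNAi. An unadjusted p under 0.05 was then reached by 1274 (15.5%). In that fit, 350 transcripts were induced (4.26%) and 58 reduced (0.706%) by *4EHP* RNAi, and 266 were induced (3.24%) and 486 reduced (5.92%) by *NELF-E* RNAi. By these calls on the single effects, 4 of the 10 responded in opposite directions, 4 responded to *NELF-E* RNAi only, none responded to *4EHP* RNAi only, and *CG3397* and *CG17224* were in no class. All 10 were also called without both control replicate 3 and *lacZ* RNAi replicate 2, where 6 were called higher (0.0722%) and 9 lower (0.108%). DESeq2 with all 12 libraries called 6 of the 10, which are *CG1092*, *CG2247*, *CG32006*, *CR33319*, *lncRNA:CR45982* and *pav*. Without any filter on low values, limma called 14 transcripts and none of the 10.

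**Figure D3:**
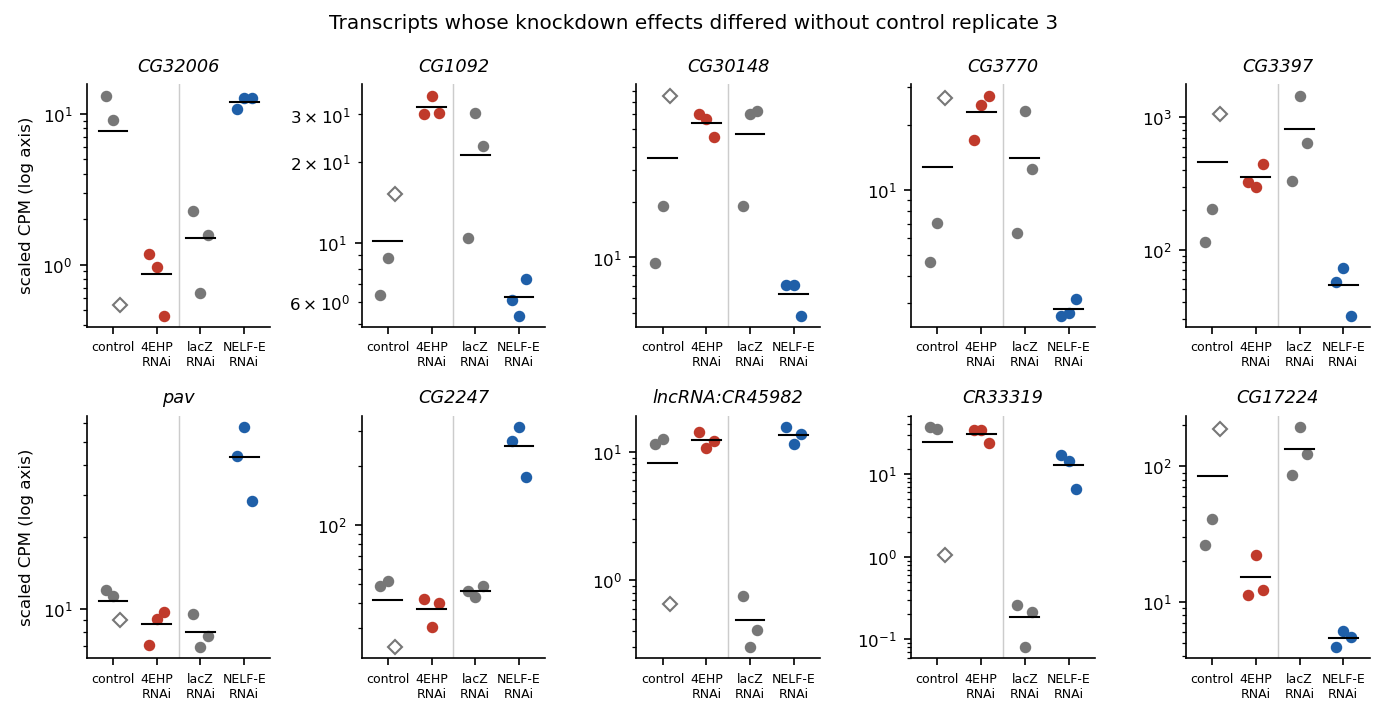
Scaled CPM on a log axis of the 10 transcripts with a called difference without control replicate 3, by group. Points are libraries, bars are group means and the open diamond is control replicate 3. In *CG1092* both knockdowns lie clear of their controls on opposite sides with all libraries shown, and in *pav* only the *NELF-E* RNAi libraries (28.4 to 57.7) stand apart.

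*CG1092* (3R:4266770-4268316, plus strand, BDGP6, the same assembly as dm6) went up with *4EHP* RNAi and down with *NELF-E* RNAi once control replicate 3 was left out. It was at 6.38, 8.78 and 15.2 scaled CPM in control replicates 1 to 3 and at 30.2, 35.3 and 30.5 with *4EHP* RNAi. It was at 10.4, 30.3 and 23.0 with *lacZ* RNAi and at 6.14, 5.34 and 7.31 with *NELF-E* RNAi. Neither pair of groups overlapped, also with control replicate 3. Its effects were 1.64 and −1.50 with all libraries (limma adjusted p = 0.0554 and 0.0722) and 2.02 and −1.50 without control replicate 3 (0.0079 and 0.0124). The difference was 3.15 (standard error 0.55, limma unadjusted p = 0.000161) and then 3.52 (standard error 0.48, limma adjusted p = 0.0167). DESeq2 with all libraries gave an adjusted p of 4.43e-05 for the difference.

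*CG32006*, on chromosome 4 (4:150764-153538, plus strand), showed the reverse pattern. It was at 13.2, 9.13 and 0.541 scaled CPM in control replicates 1 to 3 and at 1.18, 0.964 and 0.458 with *4EHP* RNAi. It was at 2.26, 0.647 and 1.57 with *lacZ* RNAi and at 10.8, 12.7 and 12.6 with *NELF-E* RNAi. Control replicate 3 fell among the *4EHP* RNAi libraries, whereas the *NELF-E* RNAi libraries were all above *lacZ* RNAi. The difference was −4.16 (standard error 0.95) with all libraries and −5.26 (standard error 0.44, limma adjusted p = 0.000475) without control replicate 3, where the single effects were −2.82 and 2.44. Since the *lacZ* RNAi libraries were also at most 2.26, the level with *NELF-E* RNAi was close to that of control replicates 1 and 2, though levels set across the experiments rest on separate scaling.

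The other transcripts called in opposite directions, *CG30148* and *CG3770*, also had control replicate 3 among or above the *4EHP* RNAi libraries. *CG30148* was at 9.38, 19.1 and 76.0 in control and at 59.9, 56.6 and 45.4 with *4EHP* RNAi. It was at 19.1, 60.0 and 62.3 with *lacZ* RNAi and at 7.11, 7.05 and 4.82 with *NELF-E* RNAi. Its effects without control replicate 3 were 1.98 and −2.56 and the difference 4.53 (limma adjusted p = 0.0167), against 3.67 (unadjusted p = 0.0026) with it. *CG3770* was at 4.63, 7.06 and 26.8 in control, 17.0, 24.8 and 27.4 with *4EHP* RNAi, 6.34, 23.2 and 12.6 with *lacZ* RNAi and 2.62, 2.69 and 3.14 with *NELF-E* RNAi. Its difference was 3.70 (limma adjusted p = 0.0245) without control replicate 3, and its exons overlap *CG15861* and *CG2790* on the other strand. *CG3397*, in no class, had a similar shape only without control replicate 3. Its *4EHP* effect was then 1.24 and did not pass, its *NELF-E* effect −3.71 and the difference 4.95 (limma adjusted p = 0.0248). With all libraries its *4EHP* effect was 0.27 (limma unadjusted p = 0.736) and the difference 3.98 (unadjusted p = 0.0045). Control replicate 3 was at 1055 scaled CPM, against 114 and 202 in control replicates 1 and 2.

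Of the 4 transcripts called for *NELF-E* RNAi only, *pav* and *CG2247* had differences of similar size with and without control replicate 3. Limma called these differences only without it (adjusted p = 0.533 and 0.632 with all 12 libraries). *pav* (3L:4242734-4246233, plus strand) encodes the kinesin Pavarotti, which is needed for cytokinesis. It was at 12.0, 11.3 and 9.00 scaled CPM in control and at 7.10, 9.07 and 9.74 with *4EHP* RNAi. It was at 9.56, 6.93 and 7.70 with *lacZ* RNAi and at 43.5, 57.7 and 28.4 with *NELF-E* RNAi. The 9 other libraries lay between 6.93 and 12.0, all below the 3 with *NELF-E* RNAi. Its *NELF-E* effect was 2.24 (standard error 0.28, limma adjusted p = 0.0031), its *4EHP* effect −0.29 (adjusted p = 0.545), and the difference was −2.53 (standard error 0.40, limma unadjusted p = 6.53e-05, the smallest of all 8162) with all libraries and −2.62 (adjusted p = 0.0245) without control replicate 3.

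*CG2247* (X:11606290-11611652, minus strand) was at 49.1, 51.9 and 23.9 scaled CPM in control, 42.3, 30.5 and 40.3 with *4EHP* RNAi, 46.0, 43.2 and 49.0 with *lacZ* RNAi and 268, 315 and 175 with *NELF-E* RNAi. Its *NELF-E* effect was 2.39 (limma adjusted p = 0.0052) and its *4EHP* effect −0.08. The difference was −2.47 with all libraries and −2.78 (standard error 0.39, limma adjusted p = 0.0184) without control replicate 3, and DESeq2 gave an adjusted p of 0.00013 with all libraries. As for *pav*, only the *NELF-E* RNAi libraries stood apart.

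The other 2, both noncoding, were at low levels with *lacZ* RNAi and in control replicate 3. *lncRNA:CR45982* (3L:2628041-2629018, plus strand) was at 11.4, 12.7 and 0.655 in control, 14.3, 10.6 and 12.1 with *4EHP* RNAi, 0.754, 0.300 and 0.408 with *lacZ* RNAi and 15.6, 11.5 and 13.8 with *NELF-E* RNAi. The pseudogene *CR33319* was at 37.2, 34.8 and 1.05 in control, 34.0, 34.1 and 23.9 with *4EHP* RNAi, 0.260, 0.0801 and 0.212 with *lacZ* RNAi and 17.2, 14.6 and 6.67 with *NELF-E* RNAi. For *lncRNA:CR45982* the *NELF-E* RNAi libraries lay in the range of control replicates 1 and 2 and *4EHP* RNAi or just above it, whereas for *CR33319* they lay below all of these. Exons of *CR33319* overlap *CG9270* on the other strand and a transposon insertion, so its values are uncertain. The differences without control replicate 3 were −3.24 and −3.66 (limma adjusted p = 0.0016 and 0.0107). The kind of control and the knockdown cannot be told apart in these values. *CG17224*, in no class, was lower with both knockdowns, at 11.2, 22.3 and 12.3 against 26.4, 40.8 and 188 in the first experiment and at 4.65, 6.11 and 5.57 against 85.7, 195 and 123 in the second, and its difference without control replicate 3 was 3.23 (limma adjusted p = 0.0288).

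Candidates for a response to 1 knockdown were also taken from all 12 libraries, by a rule added after the values were seen. The rule asked for 1 effect with an adjusted p under 0.05, an unadjusted p of at least 0.05 for the other and an unadjusted p under 0.05 for the difference. It gave 34 transcripts for *NELF-E* RNAi, 11 higher and 23 lower, and 9 for *4EHP* RNAi, 5 higher and 4 lower. The rule itself uses the difference, so these counts describe the candidates and test nothing. The other effect was smaller in all of them, and had the same sign in 26 of the 34 and 8 of the 9.

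**Figure D4:**
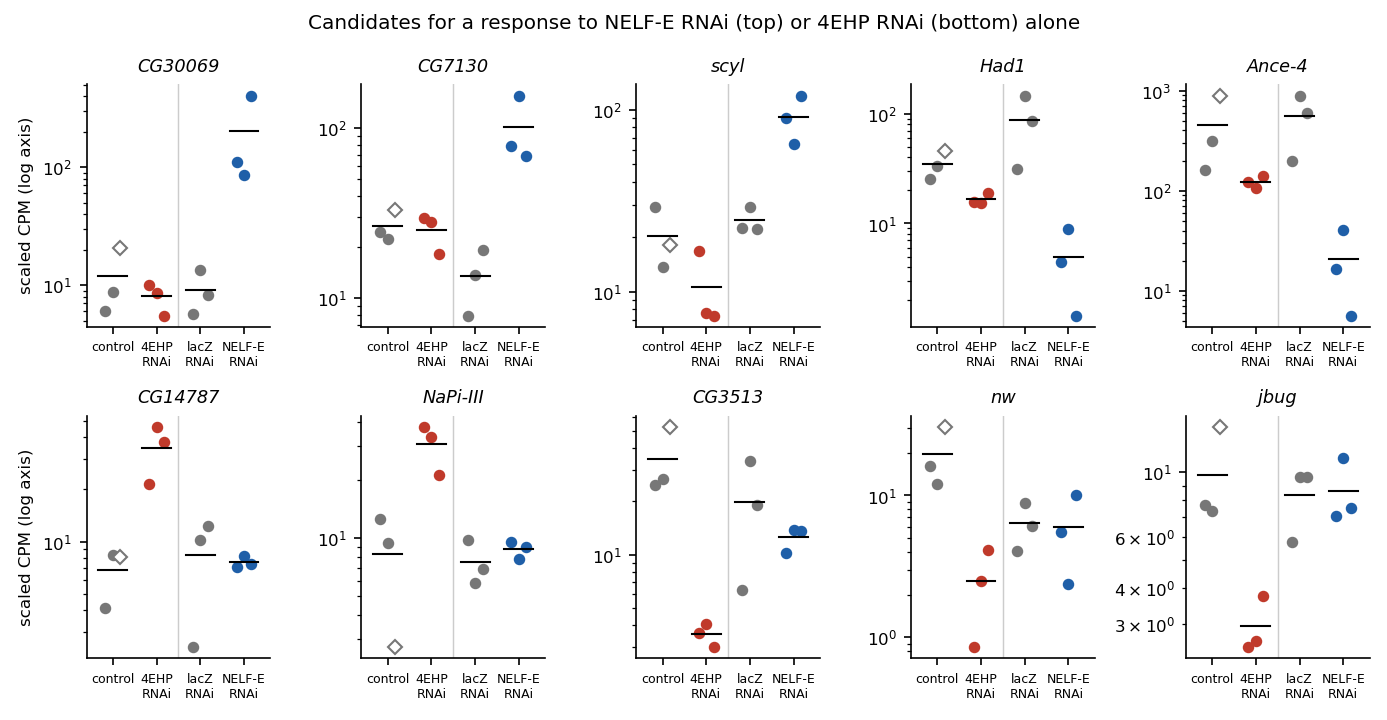
Scaled CPM on a log axis of 5 transcripts that moved with *NELF-E* RNAi (top) and 5 that moved with *4EHP* RNAi (bottom), by group. Points are libraries, bars are group means and the open diamond is control replicate 3. For *CG30069* the *NELF-E* RNAi libraries (86.1 to 404) lie above all others, and for *CG3513* the *4EHP* RNAi libraries (3.00 to 4.05) lie below all others.

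Among those higher with *NELF-E* RNAi, *CG30069* was at 111, 86.1 and 404 scaled CPM against 5.71, 13.5 and 8.24 with *lacZ* RNAi, an effect of 4.04 (limma adjusted p = 0.0063). It was at 6.06, 8.67 and 20.8 in control and 9.98, 8.62 and 5.50 with *4EHP* RNAi, an effect of −0.37. The difference of −4.41 (standard error 0.85) did not pass in limma (adjusted p = 0.632) and passed in DESeq2 (adjusted p = 0.000147). *CG7130* had effects of 2.79 with *NELF-E* RNAi and −0.08 with *4EHP* RNAi, and *CG9801* had 2.07 and −0.29. For *CG9801* the difference was called without both control replicate 3 and *lacZ* RNAi replicate 2 (−2.98, limma adjusted p = 0.0133).

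The hypoxia and stress inducible gene *scyl*, a REDD1 homolog that restrains TOR, was outside the rule because its *4EHP* effect had an unadjusted p of 0.0394. It was at 29.2, 13.6 and 18.1 scaled CPM in control and at 16.8, 7.64 and 7.37 with *4EHP* RNAi, so these groups overlapped. It was at 22.4, 29.2 and 22.2 with *lacZ* RNAi and rose to 89.9, 64.7 and 120 with *NELF-E* RNAi. Its effects were −0.90 and 1.82 (limma adjusted p = 0.306 and 0.0325) and the difference was −2.72 (standard error 0.54, unadjusted p = 0.000465; DESeq2 adjusted p = 0.00236). Its paralog *chrb* had effects of −0.85 and 0.50, neither of which passed, and a difference of −1.35 (limma unadjusted p = 0.0240).

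Among those lower with *NELF-E* RNAi, *Ance-4*, of the angiotensin-converting enzyme family, was at 16.6, 40.8 and 5.62 scaled CPM against 199, 875 and 597 with *lacZ* RNAi. It was at 160, 316 and 893 in control and at 122, 106 and 140 with *4EHP* RNAi, below every control library. The effects were −4.80 (limma adjusted p = 0.0105) and −1.54 (adjusted p = 0.412). *Had1* had effects of −3.87 and −0.98, and its *4EHP* RNAi libraries also lay below every control library. Exons of *Had1* overlap *CG3679* and *asRNA:CR45485* on the other strand. *Drsl5*, a drosomycin-like gene, had −4.63 and −1.05, and *Cyp4e3* −4.43 and −1.14.

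Of the candidates for *4EHP* RNAi, *CG14787* was at 21.5, 45.9 and 37.4 scaled CPM with *4EHP* RNAi against 4.15, 8.33 and 8.12 in control, and at 7.14, 8.21 and 7.43 with *NELF-E* RNAi against 2.44, 10.2 and 12.4 with *lacZ* RNAi. Its effects were 2.18 (limma adjusted p = 0.0472) and 0.10. *NaPi-III*, a sodium-dependent phosphate transporter, had effects of 1.94 and 0.21. *CG31549*, *CG1463* and *CG11710* had differences of 1.02, 0.78 and 0.77, each with a *NELF-E* effect of the same sign.

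*CG3513* fell to 3.63, 4.05 and 3.00 scaled CPM with *4EHP* RNAi from 24.8, 26.8 and 52.6 in control, and was at 10.3, 13.8 and 13.7 with *NELF-E* RNAi inside the range of 6.33, 33.9 and 19.0 with *lacZ* RNAi. Its effects were −2.89 (limma adjusted p = 0.0160) and −0.35 and the difference was −2.54 (standard error 0.71). *nw*, which encodes a C-type lectin, had effects of −2.58 and −0.18. *jbug*, which encodes a filamin-type actin cross-linker, had −1.40 and 0.05. *ImpE2*, an ecdysone-inducible gene, had −4.46 and −1.31, with a single *lacZ* RNAi library at 4.31 against 49.0 and 46.5 in the others. None of the 9 differences was called without control replicate 3 or by DESeq2.

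The groups were also compared by library, with no test. In 608 transcripts (7.45%) all knockdown libraries lay below their controls in both experiments, and in 357 (4.37%) all lay above. In 5 transcripts (0.0613%), the knockdown libraries lay apart from their controls on opposite sides, always higher with *4EHP* RNAi and lower with *NELF-E* RNAi. These were *CG1092*, *Atg14*, *Ravus*, *mRpL17* and the muscle gene *Mlc2*. *Mlc2*, a myosin light chain, was at 1.18, 9.26 and 6.09 in control, 30.7, 29.2 and 9.65 with *4EHP* RNAi, 20.0, 87.9 and 152 with *lacZ* RNAi and 9.48, 2.77 and 10.8 with *NELF-E* RNAi. The muscle list as a whole summed to 91.2 to 226 CPM in control, 212 to 383 with *4EHP* RNAi, 168 to 304 with *lacZ* RNAi and 195 to 405 with *NELF-E* RNAi, and its part in the *Mlc2* values was not tested. Without control replicate 3, the libraries lay on opposite sides for 118 transcripts (1.44%), of which 91 were higher with *4EHP* RNAi and lower with *NELF-E* RNAi.

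Gene lists were described by their medians, beside the median of all transcripts. Over all 8162 transcripts the median effects were 0.14 for *4EHP* RNAi and −0.05 for *NELF-E* RNAi and the median difference was 0.32, so a list near 0.32 did not stand apart. With CPM as deposited those effects were 0.67 and 0.64 and the difference 0.13. The median difference was 0.09 without control replicate 3. The sign of a list's single effect thus depends on the scaling, and with CPM as deposited the *NELF-E* medians of the ribosomal protein, oxidative phosphorylation, eIF3, ecdysone and insulin lists and the *4EHP* medians of the proteasome, glycolysis, eIF3 and cap-binding lists turned positive. The median differences of these lists kept their sign under CPM as deposited, TMM and centring.

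A list of 7 transcripts named by the study held *Thor*, the serine synthesis genes *aay*, *CG6287* and *CG11899*, the one-carbon genes *Nmdmc* and *Gnmt*, and the amino acid transporter gene *path*, several of them known crc/ATF4 targets. It had medians of −2.10 with *4EHP* RNAi and −2.67 with *NELF-E* RNAi, and in 6 of them the libraries lay below their controls without overlap in both experiments. With *4EHP* RNAi 1 of 7 was reduced, *Thor*, and with *NELF-E* RNAi 4 of 7 were, *Thor*, *CG11899*, *Nmdmc* and *path*, against 0.662% and 1.79% of all transcripts. These counts were 4 and 5 without both control replicate 3 and *lacZ* RNAi replicate 2, and 5 and 6 with DESeq2. No difference was called. The median difference was 0.48 with all libraries, 1.00 without control replicate 3, where all 7 lay above 0, and 0.09 without control replicate 1. *Thor*, the gene of the eIF4E-binding repressor 4E-BP, was at 1097, 2543 and 2095 scaled CPM with *lacZ* RNAi and fell to 85.6, 132 and 51.0 with *NELF-E* RNAi. It was at 841, 1146 and 3982 in control and at 124, 125 and 75.1 with *4EHP* RNAi. Its effects of −3.89 and −4.42 differed by 0.53 (95% interval −1.37 to 2.43). Without control replicate 3 they were −3.17 and −4.42 and differed by 1.24 (limma unadjusted p = 0.0763). *CG11899*, the serine biosynthesis enzyme PSAT, differed most in this list, with effects of −1.45 and −2.88 and a difference of 1.43 (standard error 0.78, limma unadjusted p = 0.0933). Without control replicate 3 its difference was 2.01 (limma unadjusted p = 0.0078, adjusted p = 0.306). These transcripts were chosen by the study on such samples, so their direction is not independent evidence. Exons of *CG11899*, *Nmdmc* and *Gnmt* overlap a gene on the other strand, and those of *crc* overlap *CG46314*. *crc* itself had effects of −0.09 and 0.36, and neither passed.

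The place of the ribosomal protein transcripts relative to all others depended on the controls. For 37 small and 50 large ribosomal subunit proteins the median effects were 0.13 and 0.10 with *4EHP* RNAi and −0.47 and −0.47 with *NELF-E* RNAi, and the median differences were 0.60 and 0.61. They were 1.15 and 1.28 without control replicate 3, but 0.15 and 0.10 without control replicate 1, below the 0.26 of all transcripts in that fit. With all 12 libraries, *RpS2* was the ribosomal protein transcript called with *NELF-E* RNAi. It fell to 177, 199 and 174 scaled CPM from 578, 1398 and 1303 with *lacZ* RNAi (effect −2.47, limma adjusted p = 0.0418). It was at 502, 808 and 2389 in control and 564, 920 and 752 with *4EHP* RNAi, where the groups overlapped. The *4EHP* effect of *RpS2* was −0.44 with all libraries and 0.24 without control replicate 3. Its difference was 2.03 (limma unadjusted p = 0.0267) and then 2.71 (unadjusted p = 0.000609, adjusted p = 0.1425), and neither passed. *RpS7* had the reverse order, with −2.22 for *4EHP* RNAi and −0.31 for *NELF-E* RNAi and a difference of −1.91 (limma unadjusted p = 0.0558), which was −1.16 without control replicate 3. *RpS12* had effects of −0.94 and −1.56, and its *NELF-E* RNAi libraries all lay below *lacZ* RNAi. Its *NELF-E* effect did not pass with all libraries (limma adjusted p = 0.264) and passed without control replicate 3 (0.0420). The effect was the same in both fits, and only its standard error fell, from 0.62 to 0.43, through the shared spread. A further fit changed the *NELF-E* effect itself. Without both control replicate 3 and *lacZ* RNAi replicate 2 it was −1.24 and did not pass (0.154).

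All 73 nuclear transcripts of oxidative phosphorylation had a positive difference, with a median of 0.62, as did all 31 of the proteasome (0.50) and all 18 aminoacyl-tRNA synthetases (0.54), against 72.8% of all transcripts. Without control replicate 3 the counts were 59 of 73, 31 of 31 and 17 of 18, against 54.9% of all, and the medians were 0.81, 0.83 and 0.93. Without control replicate 1 the counts were 71, 29 and 16, against 69.1% of all, and the medians were 0.43, 0.27 and 0.25, the last 2 close to the 0.26 of all transcripts. The medians of the single effects were 0.33 and −0.21 for oxidative phosphorylation, −0.32 and −0.83 for the proteasome and 0.50 and 0.04 for the synthetases. Glycolysis, with 12 transcripts, had −0.14 and −0.83, and its *4EHP* median was 0.47 without control replicate 3. None of the members had a called difference. Members of a complex vary together, so their counts are not independent.

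Cap-binding proteins and their partners lay on the other side of 0, with a median difference of −0.17 over 12 transcripts and −0.49 without control replicate 3, where 1 of 12 was above 0. It stayed between −0.75 and −0.03 in the 26 settings run. The ecdysone list was at −0.73 over 10 transcripts (−0.33 without control replicate 3) and the insulin, TOR and FOXO list at −0.41 over 17 (−0.08). The 8 transcripts of NELF, its partner DSIF and P-TEFb were at 0.09, none of them called for either knockdown. The eIF3 subunits, 13 transcripts, had medians of −0.36 and −0.68 and a difference of 0.40. Without control replicate 3 the *4EHP* median turned to 0.13 and the difference was 0.96, and without control replicate 1 the difference was −0.01. The effects were −0.91 and −1.16 for *eIF3h*, whose exons overlap *senju*, and −0.63 and −0.97 for *eIF3l*. None of these passed with all libraries, and the *NELF-E* effect of *eIF3h* did without control replicate 3 (limma adjusted p = 0.0383). That effect was the same in both fits, and only its standard error fell, from 0.40 to 0.31.

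Detoxification genes included several shared calls. Of 24 glutathione S-transferases, 4 were induced by *4EHP* RNAi and 4 by *NELF-E* RNAi, against 1.92% and 1.49% of all transcripts, in both cases *GstD3*, *GstD4*, *GstD6* and *GstE6*, and *GstT4* was reduced by *NELF-E* RNAi. The GstD and GstE genes are close paralogs, so reads may be split among them. Of 37 cytochrome P450s, *4EHP* RNAi induced *Cyp9b1* and reduced 5, and *NELF-E* RNAi reduced 6, against 0.662% and 1.79% of all transcripts reduced, of which *Cyp304a1*, *Cyp4p1*, *Cyp6a21* and *Cyp6t1* were shared. *NELF-E* RNAi reduced 12 of the 35 tested without control replicate 3. *Cyp9c1*, called for *NELF-E* RNAi, had effects of −0.85 and −3.54 and a difference of 2.69 (limma unadjusted p = 0.0218), and its *4EHP* effect was 0.02 without control replicate 3. Among 12 heat shock genes, *Hsp23* and *Hsp27* were reduced by both, the latter with effects of −1.98 and −1.93, and *4EHP* RNAi also reduced *Hsp67Ba* (−1.58). Exons of *Hsp27*, *Hsp67Ba* and *Cyp9c1* overlap genes on the other strand. *Hsp70Bb* passed as higher with *4EHP* RNAi, but reads may be split among near-identical copies: it was at 0.259, 0.427 and 0 scaled CPM in control and 24.6, 14.9 and 5.18 with *4EHP* RNAi, while *Hsp70Ab* was at 31.3, 20.4 and 5.53 and then at 11.5, 12.5 and 1.58. The pair therefore gives no direction for Hsp70. *Tsf1*, the iron carrier transferrin, had −4.46 and −2.91, of which the first passed with all libraries and both without control replicate 3. *Fbp1*, a receptor for storage proteins that marks the late larval fat body, had effects of −3.48 and −2.94, which both passed with all libraries (limma adjusted p = 0.0243 and 0.0423). The *4EHP* effect was −2.92 without control replicate 3 and did not pass (limma adjusted p = 0.0545).

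**Figure D5:**
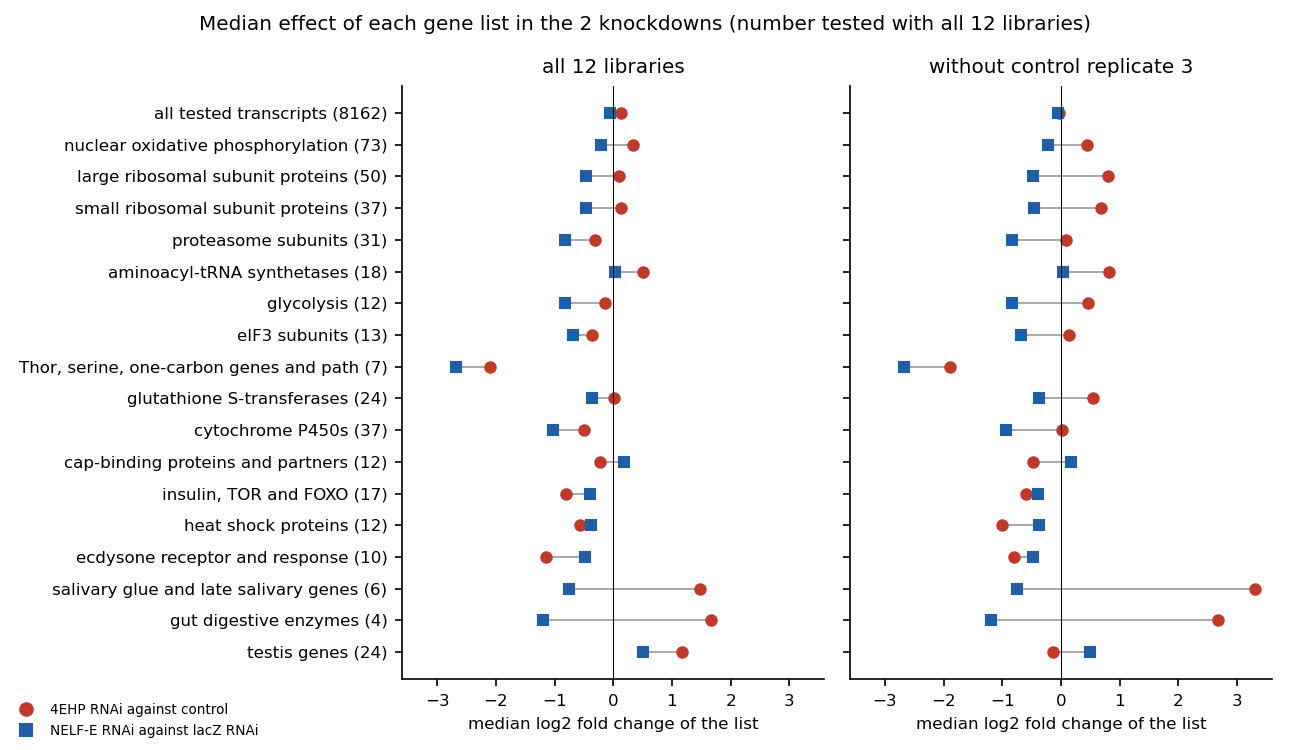
Median log2 effect of *4EHP* RNAi (circles) and *NELF-E* RNAi (squares) for each gene list, with all 12 libraries at left and without control replicate 3 at right. The number of tested transcripts is in parentheses. The list with *Thor* and the one-carbon genes lies to the left for both knockdowns (−2.10 and −2.67), the ribosomal protein lists lie on either side of 0 (both effects above 0 with CPM as deposited), and the testis list changes order between the panels.

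Lists of other tissues moved with the libraries. The testis list had a median difference of 0.77 with all libraries and −0.45 without control replicate 3, so its direction depended on that library. The glue list, which marks salivary gland, ranged from 7.72 to 673 CPM across libraries, and its median difference of 2.36 over 6 transcripts turned to −0.67 in DESeq2. The gut list was at 1015 to 1853 CPM in 9 libraries and at 265 to 674 with *NELF-E* RNAi, and the 4 tested members had a median difference of 2.86. The tested transcripts with a *4EHP* effect above 4 and a *NELF-E* effect within 1 of 0 were, chosen after the values were seen, the serine protease genes *Jon65Aiii*, *Jon65Aiv* and *yip7*, which are known from the gut. Their effects were 4.55, 5.05 and 4.48 with *4EHP* RNAi and 0.13, 0.24 and 0.05 with *NELF-E* RNAi, and the differences had standard errors of 2.71, 2.88 and 2.45 and did not pass. Whether RNA of these tissues entered the differences listed above was not tested.

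What the annotation gives was compared as a description. Single-exon genes made up 15.3% of all tested transcripts with an annotation, 18.6% of those induced by both, 17.5% of those reduced by both and 18.8% of the *NELF-E* candidates. The X chromosome held 16.1%, 17.1%, 12.5% and 21.9% of them. Median exon length was 1877 bases over all, 1960 in those induced by both and 1514 in those reduced by both. *CG32006* and *lncRNA:CR46488*, which had effects of 4.32 with *NELF-E* RNAi and 1.24 with *4EHP* RNAi (2.05, limma adjusted p = 0.0247, without control replicate 3), both lie on chromosome 4.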

How the data were processed

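For 12 RNA-seq libraries of fat body of the third larval instar, from males by the methods, the authors deposited CPM (reads per gene scaled to a common total) in 2 tables. The submitters' processing notes name STAR, featureCounts, DESeq2 and build dm6. The strand setting of the counting and the versions of STAR and featureCounts are not given in the sources used here. No per-sample column was left unmapped (0), and 99.95% to 100% of values were whole reads within 0.1 read.

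CPM was divided by median-of-ratios factors within each table, and log2(CPM + 1) of transcripts averaging 5 CPM or more in both was fitted in 1 model with limma 3.58.1 (R 4.3.3, eBayes with trend). P values were Benjamini-Hochberg adjusted over all tested transcripts (threshold 0.05). The fit was also run on simulated data, whose outcome is not given here and is not used for any result. "Scaled CPM" are values after the factors. Fold changes on this scale understate those of low transcripts. Per the methods the libraries are biological replicates, each from pooled larvae, and p values measure the spread among them. Alternatives were other scalings, pseudocounts of 0.1 and 5, other filters, spread within each table, array weights, edgeR 4.0.16 and DESeq2 1.42.0 (baseMean above 350) on recovered reads, a replicate block, and leaving out libraries.

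Transcripts, classes and lists were chosen with earlier results of these data known. By the rule for named transcripts, up to 6 per response class and sign with the largest called difference and no overlap of libraries in at least 1 experiment (both for opposite) were taken, filled from the fit without control replicate 3, besides targeted genes and list members that were called or carried a list result. Candidates for 1 knockdown, shared transcripts and those with libraries on opposite sides were added after the values were seen. Positions are from BDGP6.54. Promoter motifs and the editing (TRIBE) table were not used here.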

Additional observations from a re-analysis of the deposited data

Results flagged for a closer look

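In 5 transcripts every *4EHP* RNAi library lay above every control library while every *NELF-E* RNAi library lay below every *lacZ* RNAi library, and none had a difference that passed adjustment in limma with all 12 libraries. For *Mlc2* the difference was 5.09 (standard error 1.17, unadjusted p = 0.0013, DESeq2 adjusted p = 0.00264). For *CG1092* it was 3.15 (standard error 0.55). For *mRpL17*, a mitochondrial ribosomal protein, it was 0.82 (standard error 0.31), from effects of 0.45 and −0.37. For *Atg14*, of the autophagy lipid kinase complex, it was 0.59 (standard error 0.29), from effects of 0.44 and −0.15. For *Ravus* it was 0.45 (standard error 0.28), from effects of 0.35 and −0.11. None of the single effects of these 5 passed in limma with all 12 libraries, and those of *NELF-E* RNAi were close to no change for *Atg14* and *Ravus*. Exons of *mRpL17* overlap *CG34263* and those of *Atg14* overlap *yem*, each on the other strand.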

How the results depend on the processing

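The called differences between the knockdowns numbered 0 higher and 0 lower in all settings but those named here. They were 7 and 7 with no filter, 2214 and 1569 with array weights (control replicate 3 had a weight of 0.0239), 17 and 16 with DESeq2, and 6 and 9 without both control replicate 3 and *lacZ* RNAi replicate 2, a setting added after seeing the data. In those 4 settings the opposite class held 0, 574, 5 and 4, the *NELF-E* only class 10, 1673, 15 and 6, the *4EHP* only class 1, 668, 0 and 0, and the same direction class 0, 238, 4 and 0. Leaving out 1 library gave 0 to 5 higher, 0 to 5 lower, 0 to 4 opposite and 0 to 4 *NELF-E* only, where every count above 0 came from leaving out control replicate 3. Transcripts with an unadjusted p under 0.05 for the difference numbered 310 with CPM as deposited, 282 with a mean of at least 1 CPM, 792 with no filter, 4418 with array weights, 404 with DESeq2, 884 without both libraries and 79 to 1274 without 1 library.

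Induced and reduced counts for *4EHP* RNAi were 573 and 130 with CPM as deposited, 209 and 82 with no filter, 0 and 0 with the spread within each table, 1202 and 1386 with array weights, 392 and 391 with DESeq2, 456 and 164 without both libraries, and 36 to 350 and 4 to 99 without 1 library. For *NELF-E* RNAi they were 420 and 227, 207 and 170, 150 and 192, 2061 and 2697, 302 and 650, 268 and 244, and 40 to 266 and 32 to 486 in the same order. The *4EHP* counts were lowest without *4EHP* RNAi replicate 2, at 36 and 4, and the *NELF-E* counts without *NELF-E* RNAi replicate 3, at 40 and 32. Transcripts with libraries on opposite sides numbered 23 with CPM as deposited, 14 with TMM, 16 with a mean of at least 1 CPM, 38 with no filter, 10 with DESeq2, 141 without both libraries and 4 to 118 without 1 library.

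The replicate block gave 1 and 0 calls for *4EHP* RNAi, 38 and 45 for *NELF-E* RNAi and 0 for the difference. The pairing had no basis beyond shared numbers, since the correlations of same-numbered deviations were 0.118, 0.0206 and −0.166 in the first experiment and 0.31, 0.184 and −0.218 in the second. The sign of the targeted genes' effects turned for *eIF4EHP* with CPM as deposited (0.25) and for *Nelf-E* with CPM as deposited (0.60), edgeR (0.0112) and without *NELF-E* RNAi replicate 3 (0.0292, the highest of −0.28 to 0.0292 when 1 library was left out). The cause of these shifts was not tested. With 3 libraries a group, the median half-width of an unadjusted 95% interval of the difference was 1.43 (0.99 without control replicate 3), before any adjustment over transcripts.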
